A study of Mus musculus with 4 samples.

Results

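The genes of mitotic entry and exit examined here were 42 genes listed by symbol, of 47937 genes in the count table. They comprised 14 regulators of entry, 10 spindle proteins, 1 coat protein of mitotic chromosomes, 4 genes of the spindle assembly checkpoint, 5 genes of the anaphase-promoting complex (APC/C) and separase step, and 8 cytokinesis genes. The list was applied by symbol, with no threshold on a measured value. All 42 had enough reads to be tested, with 605 reads or more in every library.

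Cells enter mitosis when cyclin B with Cdk1 becomes active, a step that Wee1 restrains and Cdc25 phosphatases release. The spindle assembly checkpoint then holds back the APC/C until chromosomes are attached, after which the APC/C with Cdc20 marks securin and cyclin B for destruction, separase opens the chromatid bonds and the cell divides. The RNAs of most of these genes are known to accumulate late in the cell cycle, under B-MYB, FOXM1 and NF-Y, and to be held down by the DREAM complex in resting or arrested cells.

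Total RNA was sequenced from mouse embryonic fibroblasts (MEF cells), which are cultured connective tissue cells. The untreated group (2 libraries) carried the genotype wild-type in the labels. The genistein group (2 libraries) received 50 µM genistein, a plant isoflavone, for 24 h, and its labels repeat the treatment in place of a genotype. The labels name no vehicle, embryo, clone or passage, and do not say whether the libraries of a group came from separate cultures, so the p-values measure only the spread between these libraries, which may be technical.

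Total counts lay between 28591958 and 31464284 per library, and the members took between 0.535% and 0.560% of them. Replicates correlated with r of 0.995 or more over log2 CPM and differed by more than sampling noise. Of 8 fibroblast markers, 7 were tested (6 lower and 1 higher), with summed normalized counts between 394664 and 433573, while Thy1 was listed at 0 in every library. Markers of other cell types were scarce, with summed normalized counts of at most 284 for any list of 4, but some moved with treatment. The muscle list stood at 37.0 and 29.6 in untreated cells and 284 and 264 after genistein, nearly all of it from Des, with Myod1 and Ckm listed at 0. The immune list went from 84.9 and 67.8 to 226 and 220 (Adgre1 at 0). The endothelial list went from 19.0 and 26.5 to 76.0 and 84.0 (Tie1 at 0) and the epithelial list from 55.9 and 48.7 to 12.2 and 14.2 (Epcam at 0). Only 1 gene of each of these lists had enough reads to be tested, and it carried most of the shift: Cd68, Kdr and Krt18 in turn. The pluripotency list held 33.0 and 37.1 before and 49.7 and 56.7 after (Zfp42 at 0). Their part in the results was not tested.

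The promoters are shown first, since they hold a feature shared by most members that played no role in choosing them. RefSeq promoters (GRCm38.p6, 250 bases before to 50 bases after a start) were at hand for 36 members, with 40 promoters in all. The cell cycle homology region (CHR), with the letters TTTGAA or TTCGAA, is the known contact of the DREAM and B-MYB complexes, and CCAAT is the known contact of NF-Y. Both were searched on both strands, where neighbouring matches may share a base. A CHR match was found in 77.5% of member promoters (31 of 40) and in 19.2% of all 32851 promoters. CCAAT was found in 80% and 37.4%, and both together in 65% and 7.52%. Within 50 bases of the start, a window chosen after the positions were seen, 70% of member promoters and 5.31% of all promoters held a CHR match. The match was present in genes that moved in either direction. It was found in 15 of 18 lower genes, 8 of 12 higher genes and 5 of 6 genes that did not pass the test, and CCAAT in 14, 9 and 6 of them. A match of these letters is a description of the window and was not tested as a binding site. Ccna2, Cdc25c, Wee1, Foxm1, Tpx2 and Kif20a had no entry in the table.

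The 7 stretches below stand for the 3 outcomes. Cdk1, Kif11 and Mki67 fell, Cdc20 did not pass the test, and Ckap2l, Ckap2 and Gtse1 rose. Each runs 5′ to 3′ on the strand of its gene from 120 bases before the RefSeq start, and ends at that start or, for Cdk1 and Cdc20, at the earlier start in the GENCODE annotation. Capitals mark TTTGAA or TTCGAA and CCAAT or their reverse complements, and capitals at an edge belong to a match that runs past it.
Cdk1 (chr10:69352939-69353032, minus strand): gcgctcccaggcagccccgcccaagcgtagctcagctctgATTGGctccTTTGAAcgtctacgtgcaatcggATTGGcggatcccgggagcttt
Kif11 (chr19:37376262-37376381, plus strand): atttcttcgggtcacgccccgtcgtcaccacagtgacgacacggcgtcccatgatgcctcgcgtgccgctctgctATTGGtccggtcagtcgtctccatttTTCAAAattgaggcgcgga
Mki67 (chr7:135716380-135716499, minus strand): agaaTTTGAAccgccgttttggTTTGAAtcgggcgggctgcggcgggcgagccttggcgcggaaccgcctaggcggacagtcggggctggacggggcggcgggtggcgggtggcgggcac
Cdc20 (chr4:118437353-118437463, minus strand): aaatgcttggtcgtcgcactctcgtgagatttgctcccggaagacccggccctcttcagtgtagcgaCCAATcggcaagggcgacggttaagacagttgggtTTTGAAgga
Ckap2l (chr2:129297213-129297332, minus strand): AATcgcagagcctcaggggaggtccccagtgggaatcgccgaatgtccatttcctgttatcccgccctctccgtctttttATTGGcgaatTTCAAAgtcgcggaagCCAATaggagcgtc
Ckap2 (chr8:22185820-22185939, minus strand): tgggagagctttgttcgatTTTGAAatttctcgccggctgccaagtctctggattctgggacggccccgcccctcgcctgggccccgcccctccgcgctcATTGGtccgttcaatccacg
Gtse1 (chr15:85859587-85859706, plus strand): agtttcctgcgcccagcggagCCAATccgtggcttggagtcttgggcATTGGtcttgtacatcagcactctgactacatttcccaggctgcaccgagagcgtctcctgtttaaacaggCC
In Cdk1, Kif11, Mki67, Cdc20 and Ckap2l, which include all 3 outcomes, a CCAAT match has a CHR match downstream of it (the CCAAT matches of Mki67 lie before the stretch shown). In Ckap2, the member with the largest rise, the CHR match lies at the far end of the stretch, outside the near window. The CHR matches of Mki67 and the only one of Kif2c, genes that were lower, also lie upstream of that window. Gtse1 has CCAAT matches and no CHR match in the window.

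The comparison of the 42 members asked how the RNAs of each mitotic step stood after genistein. Their values split, with 22 members lower, 14 higher and 6 not passing the test (quasi-likelihood test of edgeR, Benjamini-Hochberg adjusted p under 0.05 over all 17358 genes and repeats tested). Of all 16240 genes tested, 38.2% were lower and 33.5% were higher by the same rule. Among the 6860 genes at least as abundant as the least abundant member, a background chosen after the data were seen, 54.5% were lower and 30.1% were higher. The members' shares, 52.4% lower and 33.3% higher, were close to those of this background, which has a lower bound on abundance but is not matched to the members. Most changes were small. The median log2 fold change was -0.11 over the members, -0.03 over all genes and -0.16 over the abundant genes, and the quartiles of the members were -0.35 and 0.16.

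By the study's stricter thresholds, which also ask for a change of over 1 on the log2 scale and a mean of over 100 normalized counts, only Ckap2 passed. These thresholds called 4.16% of all genes lower and 3.92% higher. In 40 of 42 members the genistein values lay wholly above or wholly below the untreated ones, and the same held for 85.3% of all genes. Ccnb1 and Kif4 were the exceptions. Standard errors of the log2 fold changes ran from 0.03 to 0.06. There were 8 members more than 0.5 from 0 on the log2 scale. Ckap2, Gtse1 and Nusap1 were higher, and Ccna2, Cks2, Plk1, Racgap1 and Cks1b were lower. Another 20 members lay within 0.25 of 0. In bulk RNA, fewer cells of a type, such as cells in mitosis, and less RNA per cell cannot be told apart. The smallest p of an exact, two-sided permutation test at this sample size is 0.333, so tests are those of the model fitted across all genes.

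**Figure D1:**
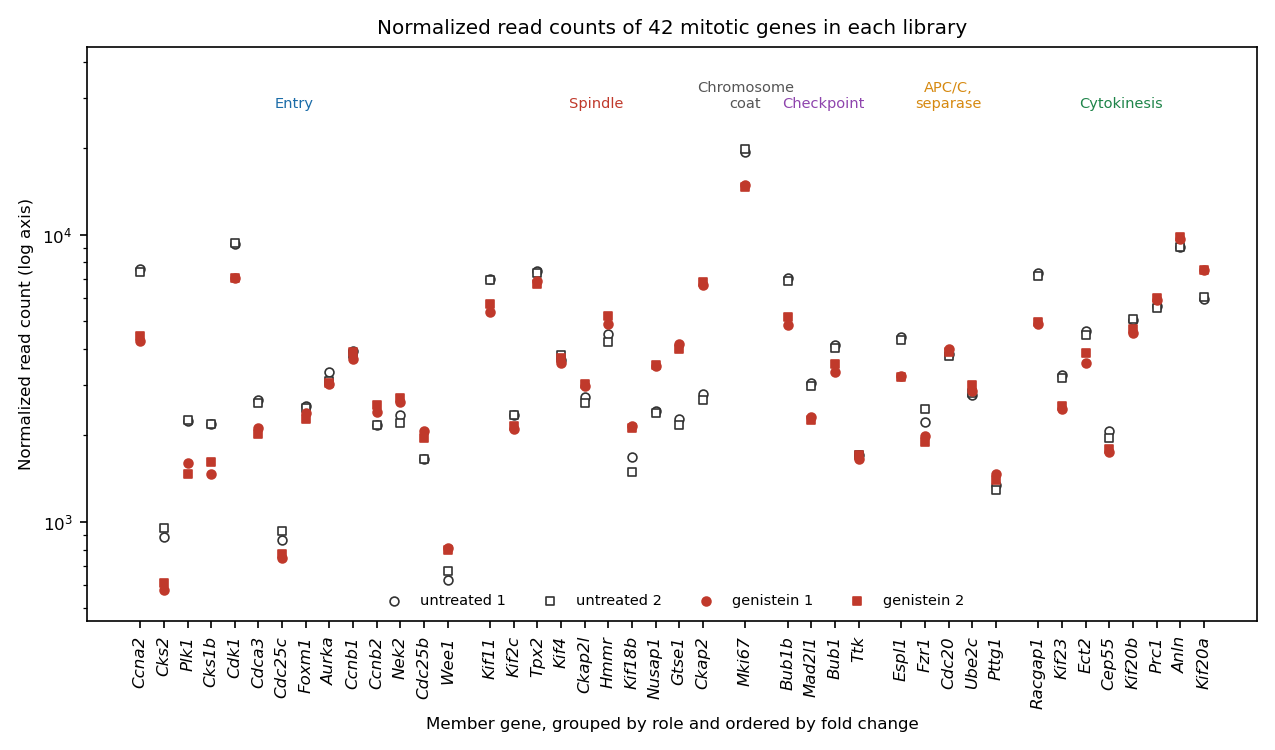
Normalized read count (log axis) of each of the 42 genes in the 4 libraries, grouped by role and ordered by fold change within a role. Open symbols are untreated and filled symbols are genistein libraries. Replicates lie close together throughout, and the widest gaps between groups are those of Ckap2 and Gtse1, which were higher, followed by Ccna2, which was lower.

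Among the 3 mitotic cyclins, each behaved differently. Ccna2 (cyclin A2, chr3:36564865-36572150), the partner of Cdk kinases in S phase and early mitosis, had normalized read counts of 7603 and 7412 in untreated cells and 4243 and 4423 after genistein. Both genistein libraries were far below both untreated ones, and this was the largest fall of any member, a log2 fold change of -0.79 ± 0.03 (SE), or 1.73-fold lower (adjusted p = 2.71e-12, which like every adjusted p here is from the quasi-likelihood test of edgeR after Benjamini-Hochberg adjustment). Ccnb1 (cyclin B1, chr13:100778650-100786570), the main partner of Cdk1 at mitotic entry, had 3934 and 3848 against 3675 and 3894, groups that overlapped, and did not pass the test (-0.04 ± 0.04, adjusted p = 0.328). Ccnb2 (cyclin B2), the Golgi-associated partner, had 2178 and 2172 against 2420 and 2551 and rose slightly, by 0.19 ± 0.04 on the log2 scale (adjusted p = 0.000396). Exons of Ccna2 overlap Exosc9 on the opposite strand, which had 5153 counts over the 4 libraries, and whether the counter used strand is not given in the sources used here, so the 2 cannot be fully separated.

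Cdk1 and its small companions fell together. Cdk1 (chr10:69335146-69352938), the kinase that drives entry, had 9279 and 9355 normalized counts in untreated cells and 7087 and 7075 after genistein, a log2 fold change of -0.40 ± 0.04 (adjusted p = 1.3e-07). Cks1b and Cks2 encode the small subunits that dock Cdk complexes on their substrates. Cks1b had 2184 and 2190 against 1465 and 1615, with a log2 fold change of -0.51 ± 0.05. Cks2 had 888 and 953 against 577 and 612, with a log2 fold change of -0.63 ± 0.06 (adjusted p = 1.29e-07). For all 3 genes the groups were far apart compared with the spread within each.

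The regulators of Cdk1 phosphorylation moved in both directions. Wee1, the kinase that inhibits Cdk1, had 626 and 675 normalized counts against 808 and 800, and rose by 0.31 ± 0.06 on the log2 scale (adjusted p = 0.000271). Cdc25b, a phosphatase that starts Cdk1 activation, had 1649 and 1650 against 2074 and 1962 and also rose (0.29 ± 0.04, adjusted p = 1.36e-05). Its exons overlap the weakly expressed Spef1. Cdc25c, the phosphatase of the later feedback, was lower with 867 and 927 against 747 and 770 (-0.24 ± 0.06, adjusted p = 0.00161). Cdca3, an adaptor of a ubiquitin ligase known to promote Wee1 removal, had 2652 and 2596 against 2119 and 2026 (-0.34 ± 0.04).

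Of the other entry kinases, Plk1 (chr7:122159439-122169873), the Polo kinase of centrosome maturation and mitotic progression, had 2245 and 2260 against 1596 and 1464, 1.47-fold lower (log2 fold change -0.56 ± 0.05, adjusted p = 1.23e-08). Aurka, the kinase of centrosome maturation and spindle poles, did not pass the test with 3314 and 3088 against 3025 and 3050 (-0.08 ± 0.04, adjusted p = 0.0898). Nek2, which separates centrosomes, was higher with 2348 and 2205 against 2619 and 2689 (0.22 ± 0.04). Foxm1, the transcription factor of late cell cycle genes, had 2536 and 2497 against 2392 and 2270, and its call (-0.11 ± 0.04, adjusted p = 0.0193) was lost under 5 alternatives. Foxm1 shares exons with Tex52 and Gm44596 on the same strand. Among the 6860 abundant genes, 54.5% were lower and 30.1% were higher. In all, the 14 entry genes had 8 lower, 4 higher and 2 not passed, with a median log2 fold change of -0.18 (-0.11 with library totals). Their levels per exon length summed to 479 and 477 in untreated and 390 and 398 in genistein libraries. These levels are FPKM-like, meaning normalized counts over the kb of merged exons, scaled as FPKM.

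**Figure D2:**
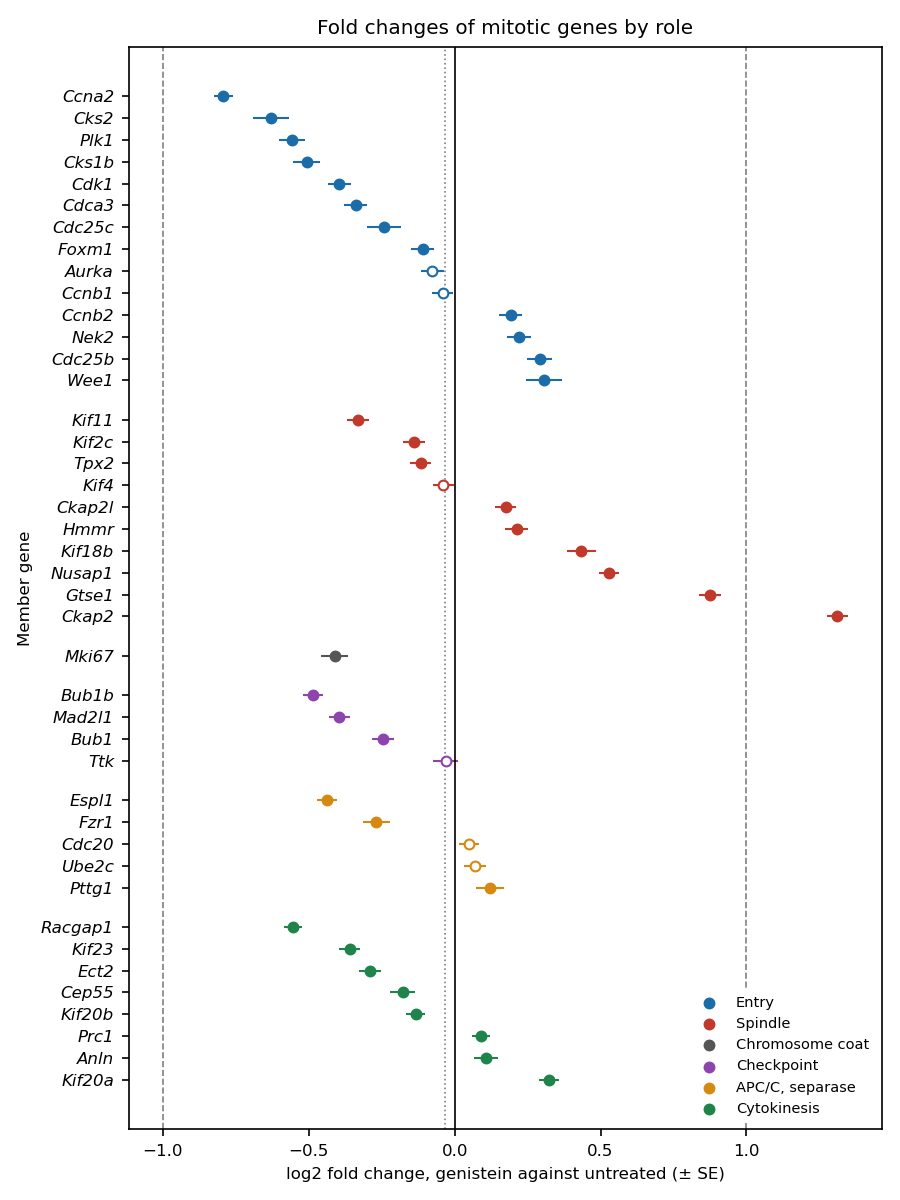
Log2 fold change of each member, genistein against untreated, with its standard error, grouped and coloured by role. Filled points passed an adjusted p of 0.05 and open points did not, the dotted line is the median of all genes (-0.03), and dashed lines mark -1 and 1, which only Ckap2 passes.

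Spindle genes held the largest rises. Ckap2 (chr8:22168160-22185819), a microtubule-stabilizing protein of the spindle poles, had 2795 and 2646 normalized counts in untreated cells and 6690 and 6822 after genistein. This was a 2.48-fold rise (log2 fold change 1.31 ± 0.04, adjusted p = 1.67e-14), far outside the replicate spread. Gtse1 (chr15:85859745-85876573), a microtubule-bound protein of G2 and mitosis also known as a regulator of p53, had 2278 and 2178 against 4161 and 4010. It rose 1.83-fold (0.87 ± 0.04, adjusted p = 5.03e-12). Nusap1 (chr2:119618298-119651244), which binds and bundles spindle microtubules, had 2435 and 2399 against 3475 and 3502, a 1.44-fold rise (0.53 ± 0.04). Exons of Nusap1 overlap Oip5, which had 2052 counts over the 4 libraries. In each of these 3 genes both genistein libraries exceeded both untreated ones.

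Smaller rises were found in Kif18b, a motor that trims astral microtubule ends (1674 and 1492 against 2151 and 2129, log2 fold change 0.43 ± 0.05), and in Hmmr, a spindle pole protein (4488 and 4224 against 4883 and 5214, 0.21 ± 0.04). Ckap2l, the paralogue of Ckap2, had 2712 and 2594 against 2981 and 3010 (0.17 ± 0.04, adjusted p = 0.000497). The other spindle members did not share these rises. Kif11, the motor that pushes spindle poles apart, fell from 7012 and 6922 to 5354 and 5722 (-0.33 ± 0.04, adjusted p = 4.27e-07). Kif2c, a microtubule depolymerase, had 2348 and 2349 against 2103 and 2161 (-0.14 ± 0.04), and Tpx2, the activator of Aurora A, 7449 and 7320 against 6878 and 6746 (-0.12 ± 0.04). Both calls were lost when libraries were scaled by their totals, and that of Tpx2 also with factors from genes alone and without untreated replicate 1. Kif4, a chromosome-bound motor, did not pass with 3669 and 3818 against 3578 and 3709 (-0.04 ± 0.04, adjusted p = 0.337), and its exons overlap Pdzd11 on the opposite strand.

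For the spindle list too, the background is the abundant genes, with 54.5% lower and 30.1% higher. Over the 10 spindle genes, 6 were higher, 3 lower and 1 not passed, and the median log2 fold change was 0.19. Their FPKM-like levels summed to 274 and 266 in untreated and 342 and 346 in genistein libraries. Without Ckap2 and Gtse1, a split made after the values were seen, the remaining 8 had a median of 0.07 and sums of 217 and 212 against 222 and 226. Most of the summed rise was thus that of Ckap2 and Gtse1. Mki67 (chr7:135689784-135716361), the proliferation marker Ki-67 that coats mitotic chromosomes, had the highest counts of any member. Its normalized counts were 19383 and 19834 in untreated cells and 14865 and 14625 after genistein, a log2 fold change of -0.41 ± 0.05 (adjusted p = 5.98e-07).

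None of the 4 checkpoint genes was higher. Bub1b (BubR1, chr2:118598211-118641591), the checkpoint component that blocks Cdc20, had 7078 and 6911 against 4851 and 5146 normalized counts, 1.40-fold lower (-0.49 ± 0.03, adjusted p = 1.99e-09). Mad2l1 (Mad2), which also binds Cdc20, fell from 3039 and 2981 to 2313 and 2264 (-0.40 ± 0.04). Bub1, the kinetochore kinase that recruits the others, had 4127 and 4012 against 3333 and 3538 (-0.25 ± 0.04). Ttk (Mps1), the kinase at the top of the checkpoint, had 1713 and 1713 against 1652 and 1704 and did not pass the test (-0.03 ± 0.04, adjusted p = 0.533). By the same rule, 54.5% of the 6860 abundant genes were lower and 30.1% were higher. The median of the 4 was -0.32, and their FPKM-like levels summed to 111 and 108 against 84.0 and 88.0.

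At the APC/C and separase step Fzr1 and Espl1 fell, Pttg1 rose slightly, and Cdc20 and Ube2c did not pass the test. Cdc20 (chr4:118432901-118437352), the mitotic coactivator, had 3836 and 3786 against 3991 and 3897 (0.05 ± 0.03, adjusted p = 0.193). Ube2c, the ubiquitin donor of the APC/C, had 2769 and 2799 against 2859 and 2983 (0.07 ± 0.04, adjusted p = 0.104). Neither passed the main test, but both passed as higher under 2 other scalings. Fzr1 (Cdh1), the coactivator that takes over at mitotic exit and in G1, was lower with 2233 and 2463 against 1995 and 1900 (-0.27 ± 0.05, adjusted p = 9.47e-05). Espl1 (chr15:102296266-102324357), the separase that cleaves cohesin, had 4385 and 4303 against 3215 and 3202 (-0.44 ± 0.03, adjusted p = 5.58e-09). Pttg1 (securin), its inhibitor, was slightly higher with 1339 and 1294 against 1465 and 1400 (0.12 ± 0.05, adjusted p = 0.0323), a call that 4 alternatives lost. Exons of Cdc20 overlap Elovl1 and those of Fzr1 overlap Mfsd12, both on the opposite strand. The FPKM-like levels of the 5 genes summed to 160 and 160 against 160 and 158.

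Among the 8 cytokinesis genes, centralspindlin and its effector fell. Racgap1 (chr15:99620496-99651656), the GTPase-activating subunit of centralspindlin, had 7325 and 7161 normalized counts against 4893 and 4978, 1.47-fold lower (-0.55 ± 0.03, adjusted p = 1.38e-10). Its motor partner Kif23 had 3249 and 3164 against 2464 and 2537 (-0.36 ± 0.04). Ect2, the exchange factor that centralspindlin brings to the equator to activate RhoA, had 4631 and 4476 against 3581 and 3868 (-0.29 ± 0.04). All 3 showed genistein values well below the untreated ones. Kif20a, the motor that carries the chromosomal passenger complex to the midzone, moved the other way, from 5954 and 6047 to 7503 and 7509 (0.32 ± 0.03, adjusted p = 3.35e-07). Its exons overlap Cdc23 on the opposite strand, which had 11609 counts over the 4 libraries and was itself lower.

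The other 4 cytokinesis genes changed little. Cep55, an abscission scaffold, had 2063 and 1952 against 1754 and 1799 (-0.18 ± 0.04), and Kif20b, another midzone motor, 5046 and 5074 against 4533 and 4699 (-0.13 ± 0.03). Anln (anillin, the scaffold of the contractile ring) had 9054 and 9035 against 9670 and 9812 (0.11 ± 0.04, adjusted p = 0.0294). Prc1, the bundler of midzone microtubules, had 5655 and 5546 against 5928 and 5998 (0.09 ± 0.03, adjusted p = 0.0143), with exons that overlap Rccd1. The calls of Kif20b, Anln and Prc1 were each lost under at least 1 alternative. By count, the 8 genes had 5 lower and 3 higher, with a median of -0.16 (-0.085 with library totals) and FPKM-like sums of 227 and 224 against 215 and 220. Of the abundant genes, 54.5% were lower and 30.1% were higher.

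**Figure D3:**
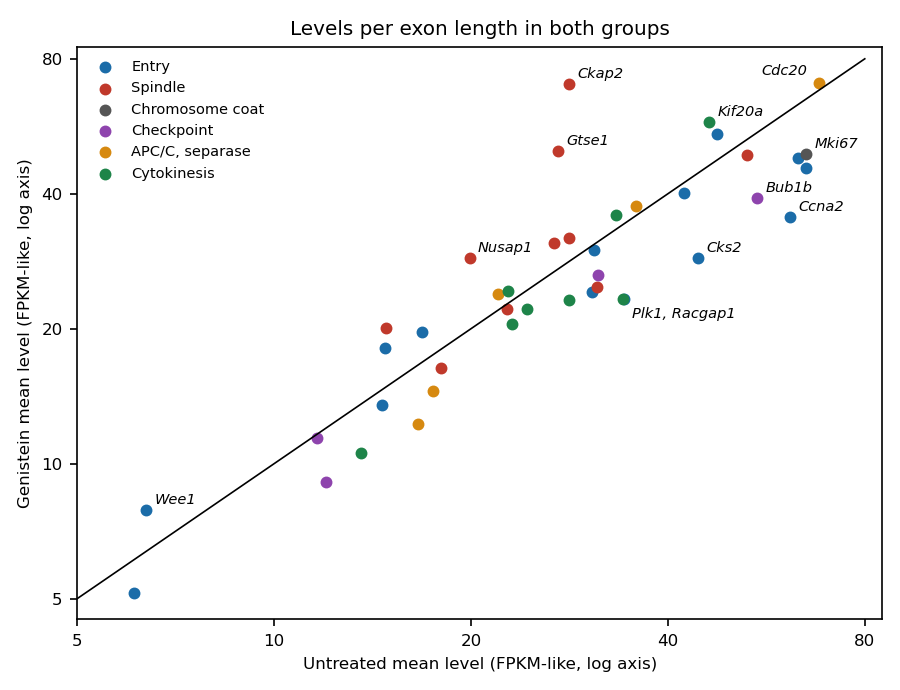
Mean FPKM-like level of each member in untreated (x) and genistein (y) libraries, on log axes, coloured by role, with the line of equal levels. Plk1 and Racgap1 coincide. Most genes lie near the line, Ckap2 and Gtse1 stand above it and Ccna2 and Cks2 below it.

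Compared per exon length, the order of the members changed at the top. In untreated cells the FPKM-like levels ran from 6.10 (Cdc25c) to 68.2 ± 0.6 (Cdc20, SD, n = 2), with a median of 28.3. The next 4 were Mki67 at 65.2 ± 1.1, Cks1b at 64.9 ± 0.1, Cdk1 at 63.1 ± 0.4 and Ccna2 at 61.5 ± 1.1. Mki67 and Cks1b did not differ beyond their spread. After genistein, Cdc20 (70.6 ± 1.2) and Ckap2 (70.3 ± 1.0) led the order and did not differ beyond their spread, and Ckap2 had moved up from place 20. Kif20a followed at 57.8 and Ccnb2 at 54.3, while Ccna2 stood at 35.5. The order depends on the merged exon lengths of the annotation, whose error is not part of the spread given. Cdc25c had more normalized counts than Wee1 in untreated cells (means of 897 and 651) but a greater exon length (4919 against 3419 bases). Exons of Cdc20, Kif20a and Ccna2 also overlap expressed genes on the opposite strand.

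Ratios of 2 genes within a library need no scaling between libraries and show the shifts between partners directly. For 9 pairs of related members the groups did not overlap, as was the case for 85.3% of single genes, and the share for other gene pairs was not computed. Where groups do not overlap, leaving out 1 library cannot reverse a shift, so such a check is no further support. Errors are the combined standard errors of both genes. Ckap2 over Ckap2l was 1.03 and 1.02 in untreated and 2.24 and 2.27 in genistein libraries, a log2 difference of 1.14 ± 0.05. The 2 paralogues were thus equal in reads before and unequal after treatment. Cdk1 over its inhibitor Wee1 fell from 14.8 and 13.8 to 8.77 and 8.85 (-0.70 ± 0.07). Pttg1 over Espl1, securin over separase, went from 0.305 and 0.301 to 0.456 and 0.437 (0.56 ± 0.06). Cdc25b over Cdc25c shifted from 1.90 and 1.78 to 2.78 and 2.55 (0.53 ± 0.07).

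Kif20a over Kif20b went from 1.18 and 1.19 to 1.66 and 1.60 (0.46 ± 0.05), and Cdc20 over Fzr1 from 1.72 and 1.54 to 2.00 and 2.05 (0.32 ± 0.06). The smallest shifts were those of Bub1 over Bub1b (0.24 ± 0.05), Ccnb1 over Ccnb2 (-0.23 ± 0.05) and Cks1b over Cks2 (0.12 ± 0.08), of which the last lay within 2 standard errors. A further pair was added after the values were seen. Ccna2 over Ccnb1 was 1.93 and 1.93 in untreated and 1.15 and 1.14 in genistein libraries (-0.75 ± 0.05).

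**Figure D4:**
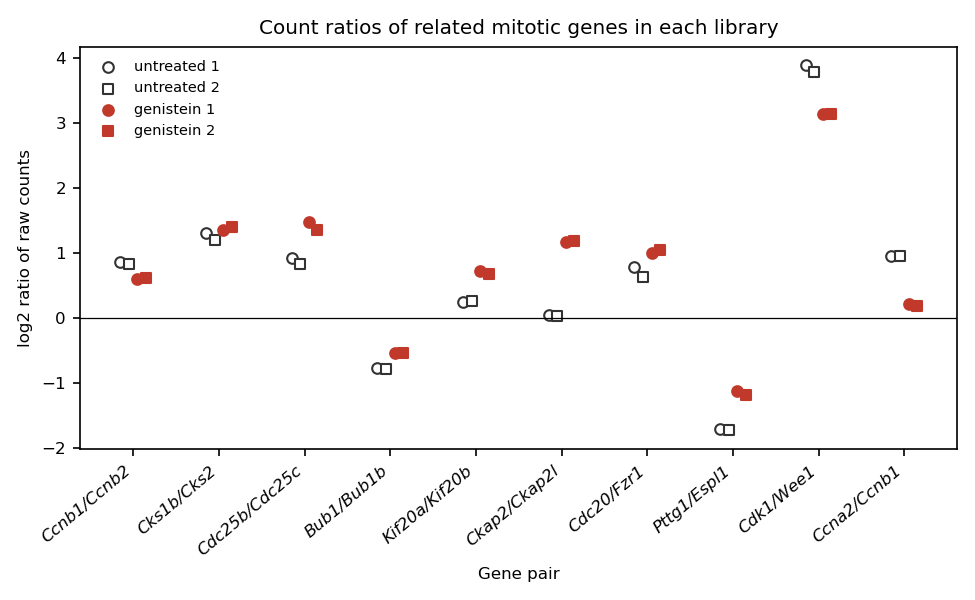
Log2 ratio of raw counts of 2 members in each library, with 0 marking equal counts. Open symbols are untreated and filled symbols genistein libraries, the groups do not overlap in any pair, and the largest shift is that of Ckap2/Ckap2l.

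Genes of the same pathway outside the 42 were described from lists written from general knowledge. Of 59 such genes, 57 were tested, and 35 were lower, 13 higher and 9 not passed. Their median log2 fold change was -0.20, below that of the 42 members (-0.11) and close to that of abundant genes (-0.16). Of the 6860 abundant genes, 54.5% were lower and 30.1% were higher. Of all 16240 genes tested, 38.2% were lower and 33.5% were higher. Both pairs of shares are the background for each list that follows. Some listed genes, such as Lin37, Lin52, Gadd45a and Sfn, were less abundant than any member, so the abundant genes are not a like background for them. Ccnb3 and Ccna1 had too few reads. The APC/C subunits and their direct regulators had 12 lower and 2 higher of 16, with a median of -0.32. Anapc15, the subunit that helps to release the checkpoint complex, fell from 1095 and 1081 to 476 and 528 normalized counts (-1.12 ± 0.06), and Fbxo5 (Emi1), the inhibitor of the APC/C in S and G2 phase, from 2099 and 2105 to 991 and 1057 (-1.04 ± 0.05). The 2 higher subunits were Anapc13 (0.28 ± 0.08) and Anapc2 (0.20 ± 0.04).

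The Greatwall pathway protects mitotic phosphorylation from phosphatase PP2A. Its kinase Mastl rose from 1597 and 1623 to 2858 and 2989 (0.86 ± 0.04) while the PP2A catalytic subunit Ppp2ca (-0.47 ± 0.04) and the regulatory subunit Ppp2r2d (-0.41 ± 0.05) fell, and of 8 genes in the list 5 were lower and 1 higher. Among 9 tested further entry regulators, 5 were lower and 2 higher. Mybl2 (B-MYB), the activator of late cell cycle promoters, fell from 2327 and 2329 to 972 and 910 (-1.31 ± 0.05), and the phosphatase Cdc25a from 1965 and 1942 to 1028 and 1047 (-0.91 ± 0.05). Lin52 (0.48 ± 0.10), a subunit of the MuvB core, and Ccnf (0.12 ± 0.04), an F-box protein, were higher.

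Further spindle genes again divided, with 6 higher and 5 lower of 12 and a median of 0.08. Kifc1, the motor that clusters spindle poles, rose from 1873 and 1859 to 3364 and 3228 (0.82 ± 0.04), as did Fam83d (0.44 ± 0.04), while Kif22 (-0.59 ± 0.04) and Kif18a (-0.28 ± 0.04) fell. Of 4 further checkpoint genes, Trip13, the ATPase that remodels Mad2, fell from 1685 and 1541 to 727 and 704 (-1.17 ± 0.06), Mad1l1 was lower (-0.18 ± 0.04) and 2 did not pass. In the list of the chromosomal passenger complex and other cytokinesis genes, 6 of 8 were lower, led by Aurkb (-0.70 ± 0.04) and Incenp (-0.49 ± 0.04). The 2 higher ones were Cit (0.71 ± 0.04), a midbody kinase, and Arhgap11a (0.13 ± 0.04).

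Neighbouring programmes of the cell cycle were set beside the members. All 21 replication genes were lower, with a median of -0.55, led by Ccne1 (-1.61 ± 0.06) and Ccne2 (-1.41 ± 0.07). All 5 tested genes known as inhibitors in G2 arrest were higher, with a median of 2.13 (Rprm had too few reads). Cdkn1a (p21), the inhibitor of Cdk complexes, rose from 370 and 360 to 2597 and 2400 normalized counts (2.78 ± 0.06), and Gadd45a from 86.9 and 77.3 to 416 and 437 (2.37 ± 0.11). Among the members, Ccna2 and Cks2 lay below the median of the replication genes by more than their standard errors. Plk1, Racgap1 and Cks1b lay within their standard errors of it. No member reached the median of the arrest genes.

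**Figure D5:**
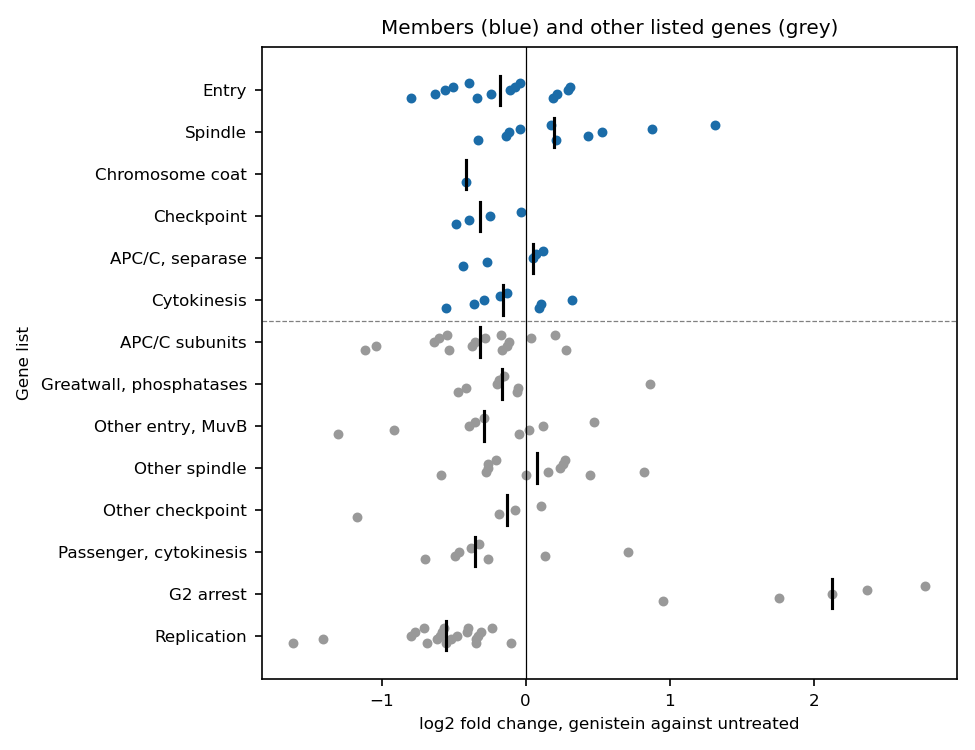
Log2 fold changes of the 42 members by role (blue) and of the other listed genes (grey), 1 point per tested gene, with a bar at the median of each list. Medians of the member roles run from -0.41 (chromosome coat, 1 gene) to 0.19 (spindle). Replication genes lie wholly below 0 and the genes known from G2 arrest wholly above it.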

How the data were processed

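The study sequenced total RNA of MEF cells from rRNA-depleted, stranded libraries, 2 per group. The authors trimmed and aligned the reads to mm10 (GRCm38), with multi-mapping reads kept, and counted reads per gene and repeat subfamily with TEtranscripts. The deposited values are whole-number counts without normalization. Whether counting used strand is not given in the sources used here.

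The row naming no gene or repeat (at most 0.00314% of the counts of a library) was left out. filterByExpr removed weakly covered entries and left 16240 genes and 1118 repeats, and library sizes were corrected by TMM factors. Groups were compared over the whole table with the quasi-likelihood test of edgeR 4.0.16 in R 4.3.3, with Benjamini-Hochberg adjustment, where the study used DESeq2 (1.42.0 here, an alternative). Normalized counts are counts brought to the mean of the 4 effective library sizes. Standard errors were derived from the log2 fold change and its F statistic. The test was checked on simulated counts. Coordinates and exon lengths are from GENCODE on GRCm38, counted from 1. The total of 28591958 or more counts per library sets the precision, and intervals between libraries, not reads, are the error.

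The 42 members, the other lists, the pairs and the tests were chosen with earlier results of these data known. The text names every member and, from each other list, up to 2 higher and up to 2 lower genes with the largest absolute log2 fold change at an adjusted p under 0.05. Alternatives covered scaling, filtering, the tool, the replicate number as a block, and fits without 1 library. Same-numbered libraries did not deviate together (correlation -0.03 over 2 pairs), so the numbers were not used as pairs.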

Additional observations from a re-analysis of the deposited data

How the results depend on the processing

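Of the 42 members, 29 kept their direction and their side of the threshold in all 10 alternatives (11 higher and 18 lower, each at least 0.17 from 0 on the log2 scale). The other 13 lay within 0.14 of 0 and changed side or sign under at least 1 alternative. These were Anln, Aurka, Ccnb1, Cdc20, Foxm1, Kif20b, Kif2c, Kif4, Prc1, Pttg1, Tpx2, Ttk and Ube2c. Members lower numbered 18 to 23 and members higher 11 to 16 over all alternatives, against 22 and 14. Ckap2 alone passed the study's thresholds under each of them. The median over the members was -0.044 with library totals, -0.070 with factors from genes alone, -0.14 without the filter and -0.14 with DESeq2, and between -0.13 and -0.091 when a library was left out. The median of each role kept its sign in every alternative, but several moved by over 1.5 times. With library totals the entry median was -0.11 against -0.18 and the cytokinesis median -0.085 against -0.16. The median of the APC/C and separase genes, 0.050, became 0.12 with library totals, 0.093 with factors from genes alone, 0.024 without the filter and 0.025 with DESeq2.

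The sign reversed for Ccnb1 (0.029), Kif4 (0.031) and Ttk (0.039) with library totals, and for Ccnb1 (0.0028), Kif4 (0.0043) and Ttk (0.013) with factors from genes alone. None of these passed the test. Without 1 library Ccnb1 ranged from -0.081 to 0.0060, the latter without genistein replicate 1. Leaving out untreated replicate 1 lost the calls of Foxm1, Tpx2 and Anln (adjusted p = 0.0521, 0.0768 and 0.154, edgeR's quasi-likelihood test), and untreated replicate 2 those of Pttg1, Anln and Prc1 (0.165, 0.145 and 0.122). Leaving out genistein replicate 1 lost Pttg1 (0.176), and genistein replicate 2 lost Foxm1, Anln and Prc1 (0.205, 0.0533 and 0.0761). Aurka was called lower without untreated replicate 2 (adjusted p = 0.00896) and without the filter (0.0230). In such fits the lone sample is assumed to vary like the other group. With the replicate block, 22 members were lower and 13 higher, and the call of Anln was lost (log2 fold change 0.11, adjusted p = 0.0913). The block changed no other member's call. The causes were not tested.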
